A study of Mus musculus with 24 samples.

Results

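The potassium channel subunits of the mouse prefrontal cortex (PFC) were taken as the protein-coding genes whose symbol begins with Kcn. There were 70 of them among the 14074 genes in the normalized expression table, and 2 further Kcn rows, the noncoding genes Kcnmb4os2 and Kcnd3os, were left out. RNA was measured by poly(A) RNA-seq in adult male C57BL/6 mice, an inbred strain, with 1 library per mouse. Stressed mice had gone through 30 days of chronic social defeat by an aggressor and had been sorted by the study, from their behaviour in a confrontation test, into a passive coping strategy (PS) and an active coping strategy (AS), which the sample labels carry only as the codes dep1 and dep2. Control mice were not defeated. Each of these 3 phenotypes was given saline or 2 mg/kg dexamethasone (DEX), a synthetic agonist of the glucocorticoid receptor, and the tissue was taken 6 h later. This gave 6 groups of 4 mice: control, PS and AS with saline, and control, PS and AS with DEX. The groups differed in no gene or transgene. The dissected block held several frontal areas together, and in such bulk tissue fewer cells of a type and less RNA per cell cannot be told apart.

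Potassium channels let potassium leave the cell, and so they set the resting potential, end the action potential and fix how fast a neuron can fire again. Voltage-gated subunits (Kcna to Kcnd, Kcnh and Kcnq) open on depolarization, inward rectifiers (Kcnj) and tandem-pore leak channels (Kcnk) hold the resting potential, and calcium- or sodium-activated channels (Kcnm, Kcnn and Kcnt) open when those ions enter. Other members form no channel alone: the Kcnf, Kcng, Kcns and Kcnv proteins join Kcnb subunits and modify them, and the Kcnab, Kcnip and Kcne proteins are accessory subunits. Glucocorticoids act through a receptor that binds DNA and changes transcription within hours.

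The libraries held 21121869 to 59439645 reads on genes (median 24420130), and the deepest were in PS and AS mice. Each of the 70 members had at least 10 reads in every library, the lowest being 17. The markers of the tissue were present, with summed levels of 204967 to 279889 normalized counts for 6 pyramidal neuron genes and 19043 to 29303 for 7 GABAergic neuron genes. Genes of the nearby striatum were also measured, 6 of 8, at 5022 to 7975. The DEX label was borne out by Fkbp5, a classic receptor target, at 796 ± 61.6 (SD, n = 4) normalized counts in saline-treated and 3820 ± 316 in DEX-treated control mice, 881 ± 91.0 and 3531 ± 276 in PS, and 890 ± 139 and 3355 ± 521 in AS mice. A normalized count is a read count divided by the size factor of its library. Differences are given as log2 fold changes on the log2(normalized count + 1) scale with their standard error (SE), and a gene was called when its Benjamini-Hochberg adjusted p over all genes in limma was under 0.1.

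The members spanned a wide range of levels. Per kilobase of exon, which allows genes to be compared, the highest mean over the 24 libraries belonged to Kcnab2, the beta subunit that carries Kv1 channels to the axon, at 2305 normalized counts per kb. It was followed by the inward rectifiers Kcnj4 at 1885 and Kcnj9 at 1106, by Kcnh3 at 1091 and by the leak channel Kcnk1 at 1069. The lowest values per kb were 22.3 for Kcng3, 26.4 for Kcnu1, a channel known from sperm, and 29.3 for Kcna5. Without the correction for length, means ran from 57.7 normalized counts (Kcnj13) to 12858 (Kcnab2), with a median of 1275 against 694 over all genes.

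**Figure D1:**
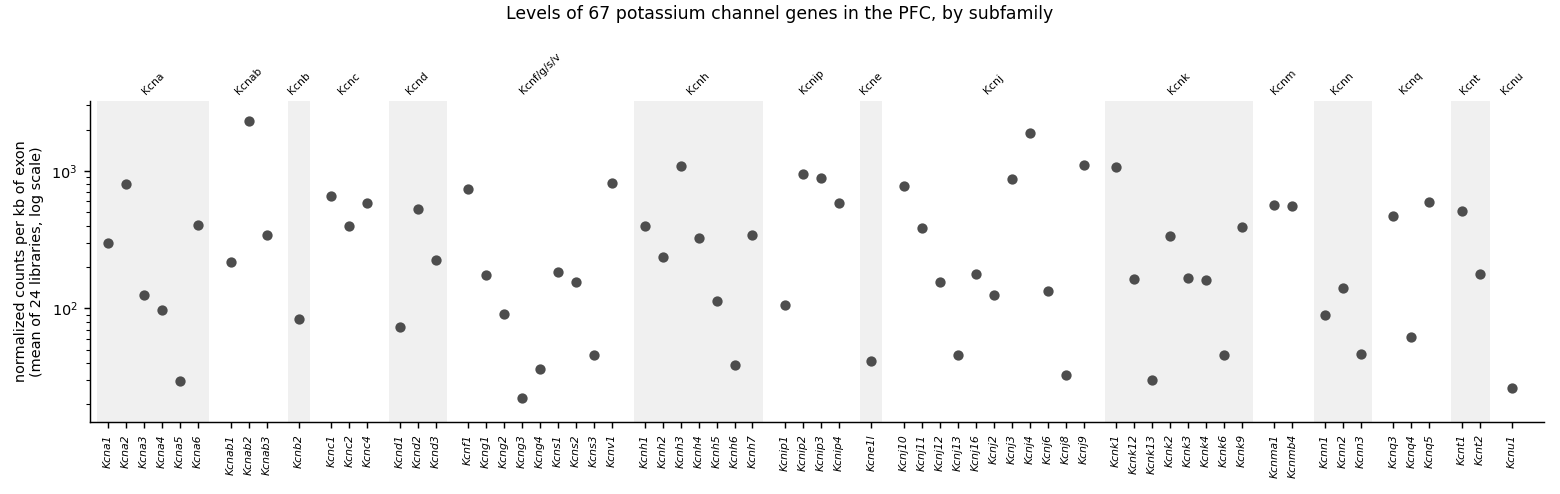
Mean level of 67 of the 70 members over the 24 libraries, in normalized counts per kb of exon on a log scale, grouped by subfamily (shaded and unshaded blocks). Kcnab2 stood at 2305 and Kcng3 at 22.3, and most subfamilies held both high and low members.

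In normalized counts without a correction for length, several subfamilies were dominated by 1 gene. Kcna2, a Kv1 subunit of axons, supplied 67.6% of the normalized counts of the 6 Kcna genes and Kcnma1, the pore of the large-conductance calcium-activated channel, 84.0% of the 2 Kcnm genes. Kcnt1, a sodium-activated channel, made up 79.8% of the Kcnt counts. These shares are not corrected for gene length. Per kb of exon, Kcnma1 stood at 568 and Kcnmb4, the other Kcnm gene, at 552, so Kcnma1 did not dominate on that scale. Kcna2 stood at 809 per kb against 401 for Kcna6, the next Kcna gene, and Kcnt1 at 513 against 179 for Kcnt2.

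DEX changed a small and partly recurring set of members. Kcnn2, Kcng2, Kcnk1 and Kcna5 rose in control, PS and AS mice alike, while Kcnn3 fell in PS and AS mice and Kcnj9 in control and PS mice. In control mice 10 of the 70 members were called (14.3%), 5 higher and 5 lower, against 6.49% of all genes (4.03% higher and 2.46% lower). In PS mice 8 were called (11.4%), 5 higher and 3 lower, against 5.36% of all genes (2.74% and 2.62%). In AS mice 10 were called (14.3%), 9 higher and 1 lower, against 8.77% of all genes (3.82% and 4.95%). With the 3 phenotypes averaged, 18 were called (25.7%), 7 higher and 11 lower, against 15.5% of all genes (7.46% and 8.01%). The saline and DEX groups did not overlap, in the rising direction, for 7 members in control (5.81% of all genes), 7 in PS (5.54%) and 8 in AS mice (4%). They did not overlap in the falling direction for 10 members in control (4.32%), 4 in PS (4.57%) and 1 in AS mice (5.02%).

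**Figure D2:**
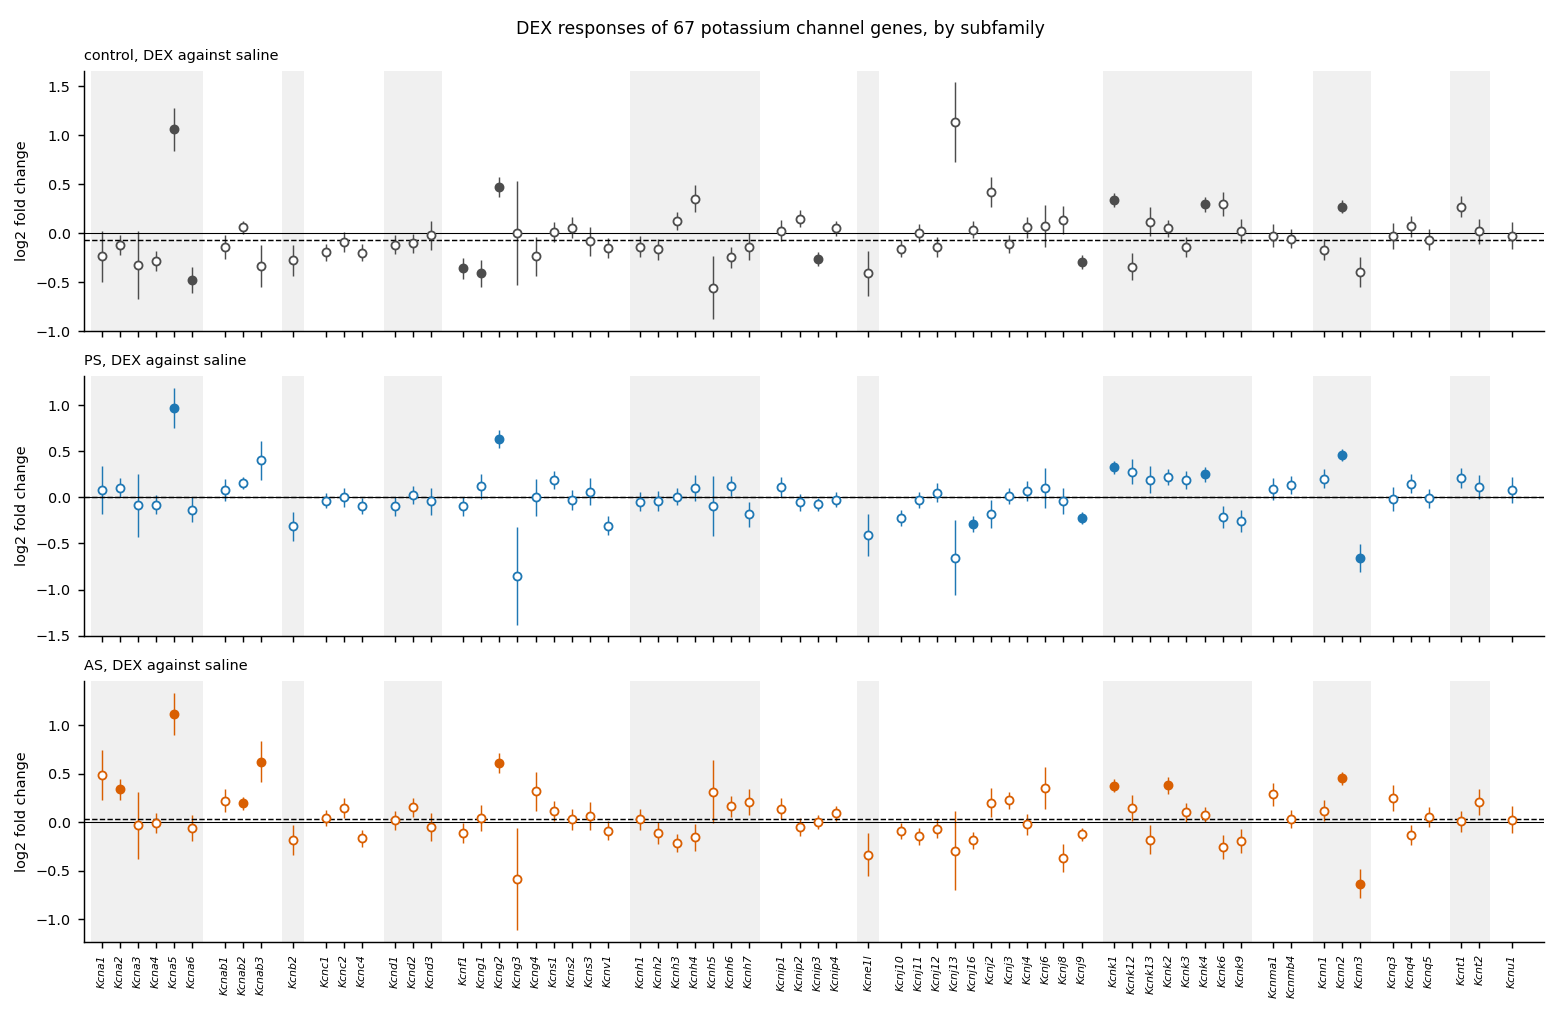
Log2 fold change of DEX against saline for 67 of the 70 members (points, with SE bars), in control, PS and AS mice from top to bottom. Filled points are members with an adjusted p under 0.1 in limma, shaded blocks separate subfamilies and the dashed line is the median of the 70 members. Kcna5, Kcng2, Kcnk1 and Kcnn2 are filled in all 3 panels, and 10, 8 and 9 points are filled from top to bottom.

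The calcium-activated SK channels, opened by calcium through bound calmodulin, slow a neuron after a spike, and their 3 genes did not move together. Kcnn2 (chr18:45268860-45686024, plus strand, GRCm38) gave 1014, 952, 1007 and 1008 normalized counts in the 4 saline-treated control mice and 1150, 1163, 1243 and 1248 with DEX. In PS mice it gave 818, 796, 881 and 909 with saline and 1242, 1165, 1133 and 1141 with DEX. In AS mice the values were 760, 857, 833 and 987 with saline and 1197, 1114, 1195 and 1186 with DEX. Every DEX-treated mouse was above every saline-treated mouse, also across phenotypes. The log2 fold change was 0.27 ± 0.07 (SE) in control mice, 0.46 ± 0.07 in PS and 0.45 ± 0.07 in AS mice, with adjusted p of 0.0164, 0.000104 and 0.000109 in limma. The DEX responses of PS and AS mice exceeded that of control mice by 0.19 and 0.18, which did not pass (adjusted p = 0.505 and 0.397). Averaged over the phenotypes Kcnn2 rose by 31.5%, the smallest adjusted p of any member (5.6e-08).

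Kcnn3 (chr3:89520164-89675132, plus strand), the other SK gene with a change, went the opposite way. It stood at 567, 632, 584 and 525 normalized counts in saline-treated control mice and at 411, 432, 391 and 523 with DEX. PS mice had 573, 560, 568 and 590 with saline and 413, 297, 364 and 384 with DEX. AS mice had 579, 674, 607 and 420 with saline and 424, 423, 244 and 389 with DEX. The groups were apart in control and PS mice, and in AS mice 1 saline-treated mouse lay within the DEX range. Kcnn3 fell by 0.66 ± 0.15 on the log2 scale in PS mice and by 0.64 ± 0.15 in AS mice (limma, adjusted p = 0.0106 and 0.011). In control mice the log2 fold change of -0.40 did not pass (adjusted p = 0.163), and neither did its difference from PS (adjusted p = 0.729) or AS mice (adjusted p = 0.684). Over the 3 phenotypes Kcnn3 fell by 32.4%. Kcnn1 was not called in any comparison.

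Kcng2 (chr18:80294546-80364254, minus strand) encodes a silent subunit that is retained in the cell unless it joins a Kv2 subunit. Its normalized counts were 236, 224, 212 and 249 in saline-treated control mice and 290, 313, 352 and 322 with DEX. They were 237, 197, 228 and 189 in saline-treated PS mice and 300, 411, 300 and 314 with DEX. In AS mice they were 204, 232, 215 and 211 with saline and 344, 347, 320 and 309 with DEX. The lowest DEX-treated value, 290, was above the highest saline-treated value, 249. The log2 fold changes were 0.47, 0.63 and 0.61 in control, PS and AS mice, each ± 0.10 (limma, adjusted p = 0.00509, 0.000298 and 0.00037).

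The other silent subunits behaved differently. Kcnf1 had 3752 to 4114 normalized counts in saline-treated and 2467 to 3671 in DEX-treated control mice, and Kcng1 had 817 to 968 and 529 to 757. Both fell in control mice, by 0.36 ± 0.10 (adjusted p = 0.0472) and 0.41 ± 0.14 (adjusted p = 0.0908) on the log2 scale, with no overlap between the groups. In PS and AS mice their log2 fold changes lay between -0.12 and 0.12 and were not called. Over the 3 phenotypes Kcnf1 fell by 0.19 (adjusted p = 0.0381), a call kept in all 24 fits that left out 1 mouse and lost without PS mice 2 and 62 together (adjusted p = 0.101). Kcnv1, the highest silent subunit per kb at 813, fell by 0.18 over the 3 phenotypes (adjusted p = 0.0419), with no call in any single phenotype. Kcnb2, a Kv2 subunit, the kind with which these proteins assemble, fell by 0.26 over the phenotypes (adjusted p = 0.0673). Removing the DEX-treated control mouse 101, which had the lowest value of its group for Kcnf1 and Kcng1, ended the calls of Kcnf1 (log2 fold change -0.25, adjusted p = 0.21) and Kcng1 (-0.29, adjusted p = 0.332) in control mice. Kcnf1 was also lost without control mice 106 or 117 (adjusted p = 0.122 and 0.11), Kcng1 in 11 and Kcnb2 in 9 of the 24 fits that left out 1 mouse.

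**Figure D3:**
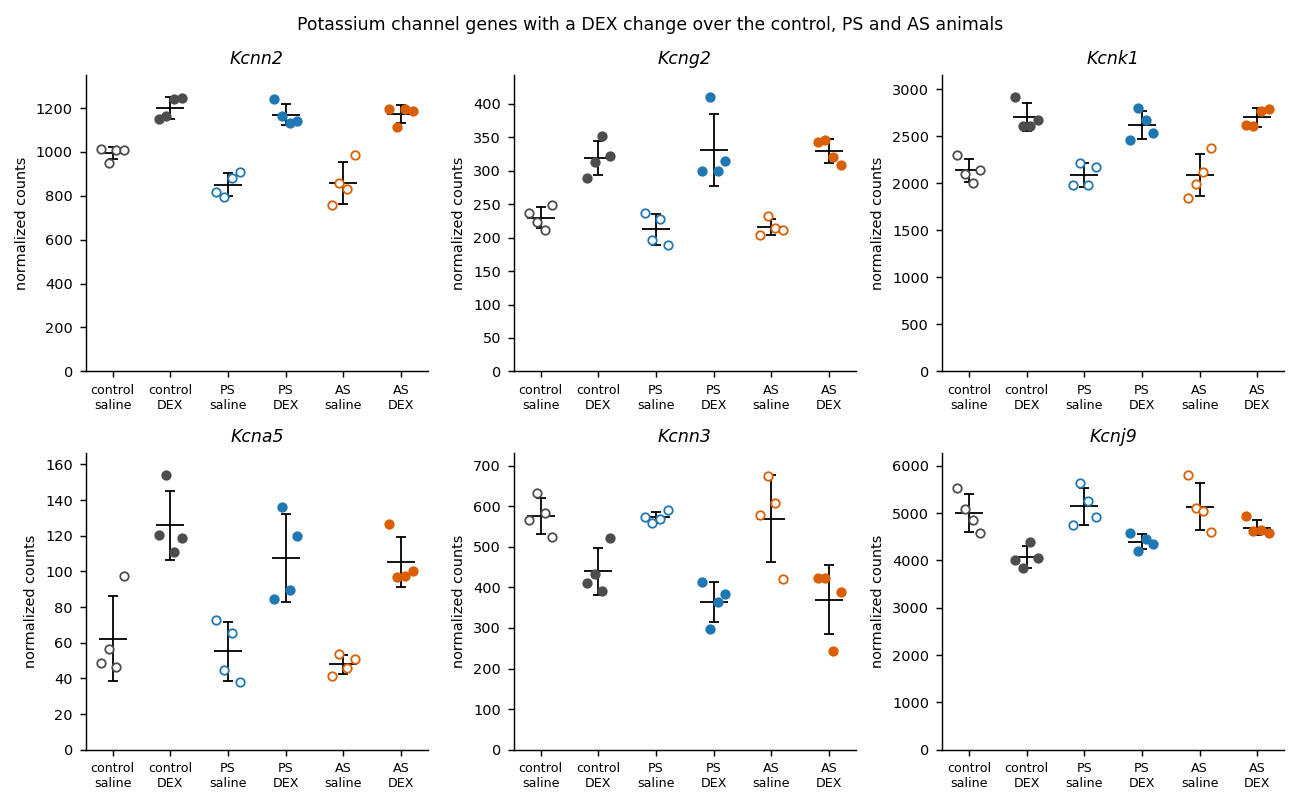
Normalized counts of 6 members in each mouse (points; open, saline; filled, DEX), with the mean (wide bar) and SD (error bar) of each group of 4. For Kcnn2, Kcng2 and Kcnk1 the filled points of every phenotype lie above all open points, for Kcna5 above those of the same phenotype, and for Kcnn3 and Kcnj9 they lie mostly below.

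Among the 8 tandem-pore leak channels, 3 rose over the phenotypes and none fell (7.46% and 8.01% of all genes). Kcnk1 (chr8:125995170-126030685, plus strand), a weak inward rectifier of neurons and astrocytes, had 2300, 2101, 2006 and 2143 normalized counts in saline-treated control mice and 2923, 2606, 2614 and 2671 with DEX. PS mice had 1981, 2215, 1983 and 2173 with saline and 2463, 2804, 2668 and 2534 with DEX. AS mice had 1843, 1997, 2124 and 2375 with saline and 2623, 2610, 2771 and 2795 with DEX. No DEX-treated mouse of any phenotype was as low as the highest saline-treated one. The log2 fold changes of 0.34, 0.33 and 0.38, each ± 0.07, passed in control, PS and AS mice (limma, adjusted p = 0.00294, 0.00501 and 0.00104), with interaction terms of -0.01 and 0.04 (SE 0.10).

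Kcnk4 and Kcnk2 encode mechanosensitive leak channels. Kcnk4 had 545 to 701 normalized counts with saline and 733 to 871 with DEX in control mice, 606 to 692 and 730 to 829 in PS mice, and 666 to 791 and 689 to 806 in AS mice. It rose in control (0.29 ± 0.08, adjusted p = 0.0351) and PS mice (0.25 ± 0.08, adjusted p = 0.0922), where the groups did not overlap, and not in AS mice (0.08 ± 0.08), where they did. Kcnk2 was called in AS mice, where 1372, 1528, 1315 and 1593 normalized counts with saline stood against 2001, 1894, 1947 and 1721 with DEX (0.38 ± 0.09, adjusted p = 0.00784). It had log2 fold changes of 0.22 in PS (adjusted p = 0.222) and 0.05 in control mice (adjusted p = 0.872). The difference between the AS and control responses of Kcnk2 was 0.33 (adjusted p = 0.219), and that of Kcnk4 was -0.21 (adjusted p = 0.415), so neither response was shown to differ between phenotypes. Over the 3 phenotypes Kcnk4 and Kcnk2 rose by 0.21 and 0.22. The control call of Kcnk4 was lost without control mouse 117 (adjusted p = 0.151) or 101 (adjusted p = 0.14), and its PS call in 13 of the 24 fits without 1 mouse.

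The 6 Kv1 genes, voltage-gated subunits mostly placed along axons, split in their DEX response. Kcna5 (chr6:126532551-126535412, minus strand), among the lowest members, had 48.6, 56.6, 46.4 and 97.4 normalized counts in saline-treated control mice and 120, 154, 111 and 119 with DEX. In PS mice it had 72.6, 44.9, 65.2 and 37.8 with saline and 84.5, 136, 89.8 and 120 with DEX. In AS mice it had 41.3, 53.7, 45.6 and 50.7 with saline and 127, 97.0, 97.4 and 100 with DEX. Saline and DEX values were apart within each phenotype, and the counts behind them went down to 35 reads. The log2 fold changes of 1.06, 0.97 and 1.12, each ± 0.22, were the highest of the called members in control, PS and AS mice (limma, adjusted p = 0.00352, 0.00905 and 0.00216). Over the phenotypes Kcna5 rose by 107%.

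The promoter of Kcna5 is shown because this gene had the highest fold change of the DEX-called members and was the only one, of those with a promoter window at hand, that matched a loose glucocorticoid response element. It is the 250 bases before the RefSeq start site on GRCm38, chr6:126535556-126535805, minus strand, written 5′ to 3′, and the capitals mark the match to the loose element, GNACA and TGTNC with 3 bases between them, which reads the same on both strands.
Kcna5: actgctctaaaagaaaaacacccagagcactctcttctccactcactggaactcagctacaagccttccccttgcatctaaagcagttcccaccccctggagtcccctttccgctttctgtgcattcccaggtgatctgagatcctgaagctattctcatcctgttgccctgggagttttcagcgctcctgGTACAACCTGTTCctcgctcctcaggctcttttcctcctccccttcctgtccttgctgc
The match lies 59 to 47 bases before the start site. Windows from 250 bases before to 50 after the start were at hand for 15 of the 22 members called in any of the 4 DEX comparisons (25 windows). None held the full element, AGAACA and TGTTCT with 3 bases between them, which 0.00913% of the 32851 windows of all genes hold. The loose form stood in Kcna5 alone, against 0.475% of all windows. The hexamer AGAACA, 1 arm of the full element, searched on both strands and present in 19.0% of all windows, was found in 2 of the 15 genes. These are shown with 10 or 9 bases on either side, capitals marking the hexamer.
Kcnj10, chr1:172341019-172341024, plus strand, hexamer on the opposite strand: tctgggtctcTGTTCTtcgagtgttt
Kcnk2, chr1:189402509-189402514, minus strand: cagctagtaAGAACAaccgtcgcta
A match in these letters is a description and not a binding site, and Kcnj10 went down while Kcna5 and Kcnk2 went up.

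Kcna6 and Kcna1 lie on the same stretch of chromosome 6 as Kcna5, at chr6:126708329-126740674 and chr6:126640397-126646384, and did not follow it. Kcna6 had 2979, 2762, 2867 and 2580 normalized counts in saline-treated and 1431, 2352, 2391 and 1994 in DEX-treated control mice, with no overlap, and fell by 0.48 ± 0.14 on the log2 scale (limma, adjusted p = 0.0413). Its log2 fold changes of -0.14 in PS and -0.06 in AS mice were not called. The control call was lost without the DEX-treated control mouse 101 (-0.32, adjusted p = 0.19) or the saline-treated control mouse 106 (-0.45, adjusted p = 0.121). Over the 3 phenotypes Kcna6 fell by 0.23 (adjusted p = 0.0602), a call kept without either of these mice and lost without PS mouse 28 or AS mice 14 or 72 (adjusted p = 0.102 to 0.115). Kcna1 had 1469 to 1974 and 857 to 2124 normalized counts in saline- and DEX-treated control mice and was not called anywhere. Kcna2 was called in AS mice, where it had 7856, 9268, 8225 and 7852 normalized counts with saline and 10419, 11766, 9457 and 10397 with DEX (0.34 ± 0.11, adjusted p = 0.0583). That call was lost without AS mice 8, 40, 42 or 72 (adjusted p = 0.102 to 0.203).

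The Kv1 beta subunits were on the same side as Kcna2 in AS mice. Kcnab2 had 11100 to 12770 normalized counts with saline and 12864 to 14748 with DEX, without overlap (0.19 ± 0.06, adjusted p = 0.0766). Kcnab3 had 505 to 1015 and 990 to 1550, with an overlap (0.63 ± 0.21, adjusted p = 0.0869). The AS call of Kcnab2 was lost without AS mice 14, 40, 38 or 72 (adjusted p = 0.108 to 0.261), and that of Kcnab3 without any of 8 of the 24 mice, most of all AS mouse 8 (0.44, adjusted p = 0.354). Each call was kept in 7 of 11 other settings. Both were lost in the fit on the compared groups only and with library size as a covariate. Over the phenotypes Kcnab2 rose by 9.77%. Kcnab1 was not called.

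The 11 inward rectifiers held 3 members that fell over the phenotypes and none that rose (8.01% and 7.46% of all genes). Kcnj9 (chr1:172320501-172329318, minus strand), a subunit of the channels that G protein-coupled receptors open, had 5533, 5079, 4845 and 4582 normalized counts in saline-treated control mice and 4001, 3844, 4393 and 4055 with DEX. PS mice had 4742, 5637, 5261 and 4923 with saline and 4574, 4198, 4452 and 4348 with DEX. AS mice had 5809, 5102, 5048 and 4592 with saline and 4930, 4621, 4650 and 4571 with DEX. The groups were apart in control and PS mice and overlapped in AS mice. Kcnj9 fell by 0.30 ± 0.07 on the log2 scale in control mice (limma, adjusted p = 0.0118) and by 0.22 ± 0.07 in PS mice (adjusted p = 0.0781). The -0.13 of AS mice was not called, and its difference from the control response was 0.17 (adjusted p = 0.464). In PS mice the call was lost without PS mice 28 or 62 of the saline group (adjusted p = 0.274 and 0.18) or any of the 4 of the DEX group (adjusted p = 0.103 to 0.2).

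Kcnj10 (chr1:172341210-172374085, plus strand), the neighbour of Kcnj9, and Kcnj16 encode the pair of subunits that forms the main potassium channel of astrocytes. Kcnj10 had 4448 to 4835 normalized counts with saline and 3888 to 4504 with DEX in control mice, 3822 to 4574 and 3382 to 4011 in PS mice, and 3851 to 4959 and 3783 to 4803 in AS mice. The saline and DEX ranges overlapped in all 3, and Kcnj10 was called over the phenotypes (-0.16 ± 0.05, adjusted p = 0.0356) and in none of them alone. Kcnj16 had 706 to 818 normalized counts with saline and 577 to 717 with DEX in PS mice, and fell by 0.29 ± 0.09 there (adjusted p = 0.0759). Its control values, 645 to 692 and 603 to 806, gave 0.03. The PS call of Kcnj16 was lost without PS mice 2, 28, 68, 6, 34 or 52 (adjusted p = 0.143 to 0.247). Over the phenotypes Kcnj16 fell by 9.71% (adjusted p = 0.065), a call lost in 7 of the 24 fits without 1 mouse. Among the 7 astrocyte marker genes, Aqp4, the astrocyte water channel, fell by 0.53 in PS and 0.49 in AS mice while Gjb6, an astrocyte gap junction gene, rose by 0.55 and 0.49. Summed over the list, the astrocyte markers had 97302 to 116489 normalized counts with saline and 84140 to 106279 with DEX in PS mice, and 91156 to 120254 and 85209 to 119850 in AS mice. The part of astrocyte content in the Kcnj10 and Kcnj16 values was not tested.

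The remaining DEX calls were few. Kcnip3, which encodes a calcium-binding accessory protein of Kv4 channels, had 3112 to 3650 normalized counts with saline and 2598 to 3077 with DEX in control mice and fell by 0.26 ± 0.07 (limma, adjusted p = 0.0335). That call was lost without control mice 106 (adjusted p = 0.137) or 122 (adjusted p = 0.12). Over the phenotypes Kcnip3 fell by 7.57% (adjusted p = 0.0791), a call lost in 14 of the 24 fits without 1 mouse. Kcnc4, a fast Kv3 channel, fell by 9.98% (adjusted p = 0.0473). Kcne1l, an accessory subunit with 34.6 to 99.8 normalized counts, fell by 23.5% (adjusted p = 0.0547), and lost its call without control mice 117 or 112, PS mouse 2 or AS mouse 8 (adjusted p = 0.1 to 0.106). No gene of the Kcnd, Kcnh, Kcnm, Kcnq or Kcnu groups was called in any comparison, which leaves Kcnq3, Kcnma1, Kcnd2 and Kcnh3 among those without a call.

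Some members were called in 1 phenotype alone, and the difference between phenotypes was tested directly. By limma, no member passed an interaction test of PS with DEX (0% of all genes were called), of AS with DEX (0.348%) or of AS against PS (0%). At an unadjusted p under 0.05 there were 11 members for PS against control (9.98% of all genes), 16 for AS against control (13.5%) and 0 for AS against PS (2.44%). For AS against control the count depended on the tool and on single mice: DESeq2 called 2 members and 439 of all genes, where limma called 0 and 49, and without the DEX-treated control mouse 112 limma called 5 members and 664 genes. Without the saline-treated AS mouse 44 it called 3 members and 686 genes, and without PS mice 34 or 56 or AS mouse 60 it called 1 member and 158 to 221 genes. Above 0 in the AS interaction stood 50 of 70 members (50.3% of all genes), with a median of 0.13 against 0.00 over all genes. This interaction contains the saline difference between AS and control mice with its sign reversed. In that saline comparison 52 of 70 members were below 0, with a median of -0.12. The 2 counts share the same saline-treated mice and are not independent, so the 50 is not a separate result on DEX.

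**Figure D4:**
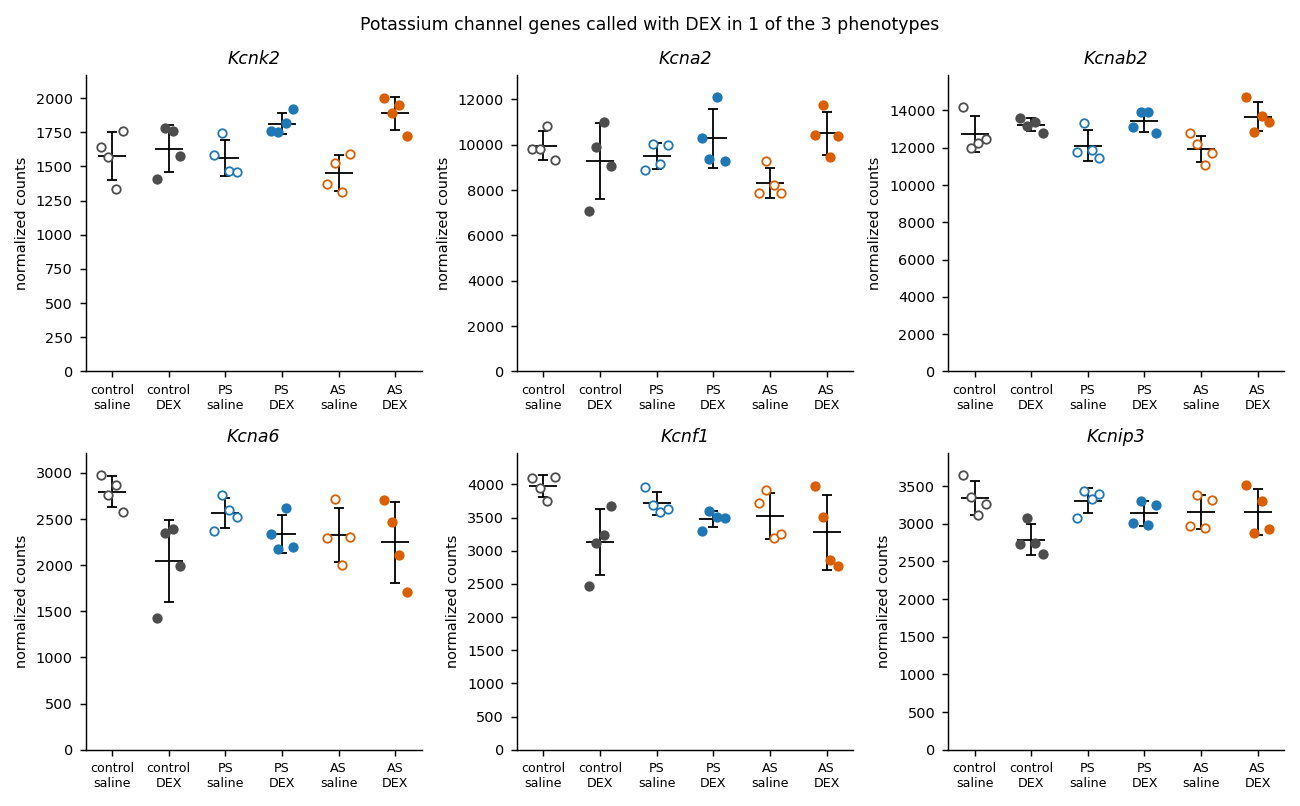
Normalized counts of 6 members called with DEX in 1 of the 3 phenotypes, in each mouse (open, saline; filled, DEX), with the mean and SD of each group of 4. Kcnk2, Kcna2 and Kcnab2 (upper row) were called in AS mice, and Kcna6, Kcnf1 and Kcnip3 (lower row) in control mice, where 1 DEX-treated mouse was low for Kcna6 (1431) and Kcnf1 (2467).

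Chronic stress without DEX left few calls. In saline-treated PS mice 1 of 70 members was called, as lower (1.51% of all genes were called, 0.796% as lower). In saline-treated AS mice 0 of 70 were called by limma (0.156% of all genes). AS and PS mice did not differ at any member by the test, again in limma (0% of all genes), and 0 members had an unadjusted p under 0.05 (4.77% of all genes). The log2 differences between AS and PS mice ran from -0.33 to 0.26, with a median SE of 0.11. For 1 member, Kcnq3, all 4 AS mice lay below all 4 PS mice (2.36% of all genes). With PS and AS averaged, 2 members were called, both lower and Kcnn2 among them (1.49% of all genes, 0.767% as lower). DESeq2 called 0 members in the AS against control and in the AS against PS comparison, and so did the quasi-likelihood test of edgeR.

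Kcnn2, given above for DEX, was also lower in saline-treated stressed mice. Its 796 to 909 normalized counts in PS mice were below the 952 to 1014 of control mice, and in AS mice 1 of 4, at 987, lay within the control range. It fell by 0.22 ± 0.06 over both stressed phenotypes (adjusted p = 0.0697), and was not called in PS (-0.23, adjusted p = 0.12) or AS mice (-0.22, adjusted p = 0.242) taken alone. This call was lost without any of the 4 control mice, PS mice 2 or 28 or AS mouse 40 (adjusted p = 0.113 to 0.188). It was also lost in the limma fit on the compared groups only, with library size as a covariate, and without PS mice 2 and 62 together (adjusted p up to 0.213). With DEX the 3 phenotypes were close, at 1201 ± 51.4, 1170 ± 49.8 and 1173 ± 39.7 normalized counts (SD, n = 4).

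Below the test's threshold, most members sat slightly lower in saline-treated stressed mice. Log2 fold changes were below 0 for 53 of 70 members in PS mice (49.4% of all genes), with a median of -0.08 against 0.00 over all genes. In AS mice they were below 0 for 52 members (49.1% of all genes), with a median of -0.12. Both comparisons use the same 4 control mice, so they are not independent of each other. At an unadjusted p under 0.05 there were 9 members in PS (13.1% of all genes) and 19 in AS mice (11%). The groups did not overlap for 8 members in the falling (6.12% of all genes) and 3 in the rising direction (5.15%) in PS mice, and for 7 (3.06%) and 2 (3.45%) in AS mice.

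**Figure D5:**
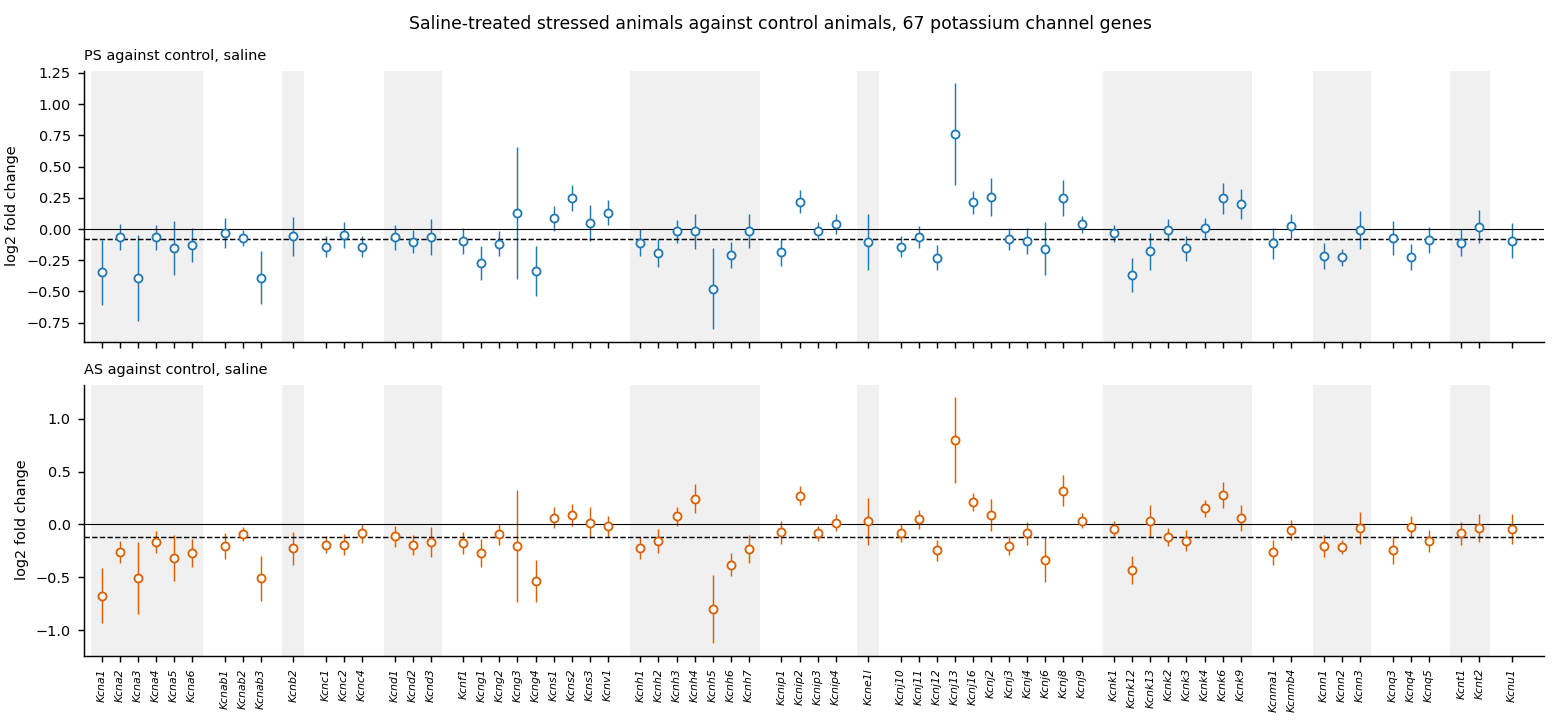
Log2 fold change of saline-treated PS (top) and AS mice (bottom) against saline-treated control mice for 67 of the 70 members (points, with SE bars), by subfamily. The dashed lines are the medians of the 70 members, -0.08 and -0.12, and 50 and 49 of the points shown lie below 0.

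By subfamily, the values were below 0 in both stressed phenotypes for all 6 Kcna genes (medians -0.14 in PS and -0.29 in AS mice), the 3 Kcnab, 2 Kcnb, 4 Kcnc, 3 Kcnd, 3 Kcnn and 4 Kcnq genes. Of the 7 Kcnh genes, 7 in PS and 5 in AS mice were below 0. The Kcnj, Kcnk and Kcnip genes were spread over both sides, with medians between -0.07 and 0.03. Kcna1, a Kv1 subunit of axons, had 1107 to 1463 normalized counts in PS and 770 to 1221 in AS mice, both below the 1469 to 1974 of control mice (log2 fold changes -0.35 and -0.68). Kcnh5 had 497 to 769 normalized counts in control and 232 to 440 in AS mice (-0.80), and Kcnh6 136 to 171 and 102 to 126 (-0.38). Kcnk12, a leak channel with little current of its own, had 354 to 395 in control, 271 to 312 in PS and 238 to 355 in AS mice (-0.37 and -0.43). None of these passed, with adjusted p between 0.228 and 0.6.

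A few members sat on the other side. Kcnip2, a Kv4 accessory protein, had 2711 to 3115 normalized counts in control, 3236 to 3751 in PS and 3161 to 4104 in AS mice, and Kcnj16 645 to 692, 706 to 818 and 726 to 852. Neither overlapped the control mice, and neither passed in PS (adjusted p = 0.294 and 0.298) or AS mice (adjusted p = 0.294 and 0.384). The values of Kcns2, a silent subunit, were 758 to 828 in control and 835 to 1065 in PS mice (0.25, adjusted p = 0.314). Kcnj8, the pore of a channel closed by ATP that is known from pericytes, had a log2 fold change of 0.32 in AS mice (adjusted p = 0.415) and of -0.37 with DEX in AS mice (adjusted p = 0.146). Kcnj13, the lowest member, known from the choroid plexus, had 22.3 to 50.9 normalized counts in saline-treated and 66.7 to 91.5 in DEX-treated control mice (1.13 ± 0.41, adjusted p = 0.137). Of the 4 choroid plexus markers only Aqp1 was in the table, at 9.21 to 200 normalized counts.

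Added over all 70 members, the normalized counts were 182232 ± 8198 (SD, n = 4) in control, 173087 ± 6117 in PS and 165899 ± 10580 in AS mice with saline. With DEX they were 176224 ± 11711, 175076 ± 10489 and 176669 ± 12047. The ranges of all 6 groups overlapped, the lowest being that of saline-treated AS mice (150506 to 173614).

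Marker genes of other cells moved between some of the same groups. The 6 oligodendrocyte genes had median log2 fold changes of -0.24 in PS and -0.48 in AS mice with saline, with 0 called by limma (1 and 5 at an unadjusted p under 0.05), and summed to 29477 to 46709 normalized counts in control, 23773 to 34766 in PS and 19293 to 32942 in AS mice. With DEX in AS mice their median was 0.48 and 2 of 6 rose, and in control mice it was -0.31 and 1 of 6 fell. With DEX in AS mice 4 of 7 endothelial genes and 4 of 7 mural genes also fell, with medians of -0.69 and -0.72. With DEX the 6 microglia genes had 2 falls and 1 rise in control mice, 3 falls in PS and 3 in AS mice. The 6 striatal genes summed to 5359 to 5618 normalized counts with saline and 6048 to 6298 with DEX in PS mice. In AS mice they summed to 5236 to 5874 and 6123 to 7975, and in control mice to 5022 to 6413 and 6104 to 6721. Over the phenotypes 3 of these 6 rose with DEX and 0 fell (7.46% and 8.01% of all genes). The medians of the 6 pyramidal neuron genes were -0.13 and -0.10 in saline-treated PS and AS mice and those of the 7 GABAergic genes -0.11 and -0.13, and these stood beside the members' medians of -0.08 and -0.12. The neuronal genes did not all go the same way. Of the 7 GABAergic genes, 1 was called as higher and 0 as lower in saline-treated PS mice, and likewise over both stressed phenotypes. In AS mice 0 were called, and 0 of the 6 pyramidal genes were called in these comparisons. The part of these cell types, or of striatal tissue, in the members' values was not tested.

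Genes that bind or place potassium channels were counted in the same way. Of 32 such genes, 30 were measured. By limma 0 were called in saline-treated PS or AS mice against control and 0 with DEX in PS mice, against 1.51%, 0.156% and 5.36% of all genes. At an unadjusted p under 0.05 there were 4, 4 and 2, against 13.1%, 11% and 13.6% of all genes. For the interactions of PS and AS with DEX there were 4 and 8, against 9.98% and 13.5% of all genes. With DEX in control mice 1 was called (6.49% of all genes). There 8 had an unadjusted p under 0.05, and the share of all genes at that threshold is not given for this comparison. The 8 is therefore not read as an excess. Called were also 2 with DEX in AS mice (8.77%) and 1 over the stressed phenotypes (1.49%). Cntnap1, a protein of the junction that borders Kv1 channels at the node of Ranvier, fell by 0.31 over the stressed phenotypes (adjusted p = 0.0357) and rose by 0.22 with DEX in AS mice (adjusted p = 0.0972). Cntnap2, which clusters Kv1 channels beside the node, rose by 0.27 with DEX in AS mice (adjusted p = 0.0937). Cntn2, its axonal partner, fell by 0.38 with DEX in control mice (adjusted p = 0.0517). Over the phenotypes 2 fell with DEX (8.01% of all genes), Akap5 by 0.18 (adjusted p = 0.0711) and Rgs7, a regulator of G protein-opened channels, by 0.13 (adjusted p = 0.0329).

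Across all 6 groups, 11 members were called for any difference (15.7%, against 14.8% of all genes). They included Kcnn2, Kcng2, Kcnk1, Kcna5, Kcnn3, Kcnj9, Kcnk2, Kcnk4, Kcnj10 and Kcnt1. Kcnt1 was called by this test alone, with 4128 to 5229 normalized counts in saline-treated and 5402 to 6143 in DEX-treated control mice, and its adjusted p of 0.0968 rose past the threshold in 17 of the 24 fits without 1 mouse.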

How the data were processed

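Bulk RNA-seq of the PFC from 24 mice was used, with groups and mouse numbers taken from the library names in the labels; the names PS and AS for the codes dep1 and dep2 follow the study. To make the deposited signal values, the authors scaled the count of each gene by the size factor of its library. Reads were trimmed with fastp 0.20.1, aligned to GRCm38 with HISAT2 2.2.1, counted over GENCODE genes with featureCounts (Subread 2.0) and scaled with DESeq2 1.36.0, per the labels and the study's methods. The libraries were strand-specific, per the study's methods. Whether the counting step used the strand is not given in the sources used here. If it did not, a member and an antisense gene such as Kcnd3os may share reads. The authors' tables of log2 fold changes and p-values were not used, apart from their gene class column. In 100.0% of values the deposited numbers were whole multiples of 1 read, within 0.01 read, and reads were recovered for depth and count models.

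In R 4.3.3, the 14074 genes were fitted by limma 3.58.1 (trended eBayes) on log2(normalized count + 1), with 1 mean per group over all 24 libraries, and p-values were adjusted over all genes. Replicates of a group differed by more than counting noise (chi-square per gene 5.68 to 80.9). The code was tested on simulated data. Alternatives were a pseudocount of 8, filters at a mean of 100 or at 10 reads, quantile and TMM scaling, fits on the compared groups only, library size as a covariate, edgeR 4.0.16, DESeq2 1.42.0, thinned reads, and fits without single mice or without 2 saline-treated PS mice with the most ribosomal bases in the study's quality table. Named members were those called in any test, the highest of each subfamily, the lowest of all, and those without overlap that changed most; some of them are counted but not reported here. Members, lists of markers and partner genes were chosen with earlier results of these data known. Exon lengths came from the union of GENCODE exons on GRCm38, and promoter windows from RefSeq on the same build (49 of 70 members matched).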

Additional observations from a re-analysis of the deposited data

Results flagged for a closer look

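In 10 of the 222 groups of 4 mice tested over 37 named members, 1 mouse lay far from the other 3. The test flags about 1 in 20 groups by chance, and it takes each gene alone. It does not show a mouse that is low for many members together. The DEX-treated mice 101 (control), 34 (PS) and 60 (AS) and the saline-treated AS mouse 44 were each lowest of their group for Kcna1, Kcnh5 and Kcnq3. Kcna1 stood at 857, 855, 869 and 770 in them. The saline-treated control mouse 117 and PS mouse 2 were also lowest of their group for these genes, with Kcna1 at 1469 and 1107. Each of the 6 groups thus held such a mouse. Kcnab3 was highest of its group in mice 34, 60, 44 and 117. A shift common to many members was not tested. Kcnn2 had 952 normalized counts in the saline-treated control mouse 107 (others 1007 to 1014) and 1114 in the DEX-treated AS mouse 42 (others 1186 to 1197), both still on their side of the DEX difference. Kcng2 had 411 in the DEX-treated PS mouse 34 (others 300 to 314), and Kcna5 127 in the DEX-treated AS mouse 38 (others 97.0 to 100). Kcnk9 was low in the same PS mouse 34, at 3490 (others 4864 to 5082), and Kcng1 in the DEX-treated PS mouse 6, at 713 (others 838 to 860). Kcnab3 had 1739 in the saline-treated control mouse 117 (others 840 to 987), and Kcnh5 586 in the saline-treated PS mouse 62 (others 381 to 411). The DEX-treated control mouse 101 was high for Kcnu1, at 129 (others 85.5 to 92.9). Kcnj13 had 86.4 in the DEX-treated AS mouse 72 (others 41.3 to 42.6).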

How the results depend on the processing

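No called fold change changed sign in any of the 11 other settings or the 24 fits without 1 mouse. Leaving out a mouse from a group outside the comparison cannot change the fold change, only its adjusted p. Of 2065 values of called members under these settings, 1890 kept the call and 175 lost it. These counts include the test for any difference, which has no direction. Of 60 pairs of member and comparison called, 32 passed in every setting, among them Kcna5, Kcng2 and Kcnn2 with DEX in control, PS and AS mice. Some calls depended on the method. Of the 11 other settings, 7 kept the AS calls of Kcnab2 and Kcnab3. The DEX calls of Kcng1 in control and Kcnk4 in PS mice were kept in 8, and those of Kcnj9 and Kcnj16 in PS mice in 9. In the fit on the compared groups only, the count of called members moved from 1 to 4 for PS against control, while all called genes moved from 213 to 523. It moved from 2 to 4 for both stressed phenotypes, with Kcnn2 no longer among them. For DEX in AS mice it moved from 10 to 6, and Kcnn3 was lost there (adjusted p = 0.114). DESeq2 gave 2 for PS against control (431 of all genes), 4 for both stressed phenotypes and 2 against 0 for the AS interaction. Library size as a covariate gave 1 for both stressed phenotypes. Without PS mice 2 and 62, which leaves 2 saline-treated PS mice, 0 remained called for PS against control (23 of all genes) and 0 for both stressed phenotypes. For DEX in PS mice 3 of 8 remained, and Kcnk1 (adjusted p = 0.186) and Kcnn3 (adjusted p = 0.101) were lost. Otherwise the cause of these moves was not tested. Without 1 mouse each, the counts ran from 0 to 2 for PS against control, 0 to 1 for AS against control, 0 to 0 for AS against PS, 0 to 3 for both stressed phenotypes, 6 to 12 for DEX in control (6 without mouse 101), 5 to 9 in PS, 7 to 15 in AS and 14 to 20 over the phenotypes, 0 to 0, 0 to 5 and 0 to 0 for the interactions of PS, AS and AS against PS, and 9 to 15 for any difference. Over all genes the ranges, in the same order, were 57 to 348, 12 to 49, 0 to 5 and 54 to 325 for stress. They were 611 to 1032, 509 to 871, 673 to 1985 and 1945 to 2495 for DEX. For the interactions they were 0 to 3, 4 to 686 and 0 to 0, and for any difference 1612 to 2666. The members' median in saline-treated mice lay between -0.09 and -0.05 in PS and between -0.15 and -0.08 in AS mice over these settings. No paired analysis was possible because mouse numbers do not recur between groups. Members under 100 normalized counts rest on few reads, and 4 mice per group limit the test to a median SE of 0.11.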
